A study of Mus musculus with 4 samples.

Results

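The genes described here are those of the mouse major histocompatibility complex (MHC), which carries the name H2, and of the machinery that prepares peptides for MHC molecules. The members were every gene model whose name starts with H2- and does not end in -ps (43 models), with 12 further genes chosen by name: B2m, Tap1, Tap2, Tapbp, Tapbpl, Erap1, Cd74, Ciita, Nlrc5, Psmb8, Psmb9 and Psmb10. This gave 55 of the 55401 gene models. Expression was read in group 2 innate lymphoid cells (ILC2s), lymphocytes without antigen receptors, that were purified from lungs of C57BL/6 mice and stimulated for 6 h. Control cultures held IL-33, an alarmin that activates ILC2s; the treated cultures held IL-33 plus Ang II (angiotensin II, the peptide hormone made by angiotensin-converting enzyme). There were 2 libraries in each group, each made from 500 cells through amplified cDNA, and IL-33 was present in all 4, so the data hold no unstimulated cells. The labels give neither the age or number of mice nor whether replicates came from separate animals or cultures, so the p-values reflect no more than how these samples differ, and that difference may be technical.

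Class I molecules pair a heavy chain with beta-2-microglobulin and show peptides made inside the cell to CD8 T cells and natural killer cells. Proteasomes cut these peptides, the TAP transporter carries them into the endoplasmic reticulum, Erap1 trims them and tapasin helps load them. Class II molecules pair an alpha and a beta chain, are guarded by the invariant chain Cd74, and show peptides from endosomes to CD4 T cells. Most class II is made by B cells, dendritic cells and macrophages, and mouse ILC2s are known to carry some of it. The transactivator Ciita drives class II genes and Nlrc5 drives class I genes, both through the same promoter boxes.

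The unit is FPKM, fragments relative to transcript length and to all mapped fragments, which lets levels of different genes be compared. The libraries summed to 394808 to 431014 FPKM, and with no counts in the files the true depth of a value cannot be given. Libraries of 1 group were first set against each other. For a typical gene of low to middle abundance (3918 genes), the IL-33 libraries differed by 1.16 times the counting noise expected at 14170000 fragments, a depth estimated from how often low genes were listed at 0 in one library only. Other cut-offs in that estimate gave 1.03 to 1.21 times, and the root mean square over the same genes, which weights the genes furthest apart, gave 2.33 times. For the pair with Ang II (6205 genes) the figure was 14.8, at the depth estimated from the IL-33 pair. By this estimate a typical gene differed between the IL-33 libraries by little more than counting noise, while some genes differed by more. The depth came from the same IL-33 pair, and real differences between its libraries would lower it. A figure near 1 is thus partly built in, and whether the IL-33 libraries are separate samples is uncertain. They were averaged and counted as 1 sample, against 2 Ang II samples, and calls with both counted are given beside the main ones. The 8 markers of ILC2s summed to 1668 and 1674 FPKM with IL-33 and to 1657 and 1698 FPKM with Ang II, and all 8 (Gata3, Il1rl1, Rora, Klrg1, Icos, Il7r, Id2 and Ptprc) were above 10 FPKM in every library. Of these, 2 (Gata3 and Ptprc) were higher in both Ang II libraries, 0 were lower and 6 overlapped, where 24.4%, 33.5% and 42.1% of all tested genes did. The sums hold unlike values of single genes: with Ang II, Id2 stood at 760 and 489 FPKM and Klrg1 at 283 and 449 FPKM.

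Of the 55 members, 19 were listed at 0 in all 4 libraries, and 31 reached a mean of 1 FPKM and were tested. H2-M5 lay just under that minimum (mean of 0.61 FPKM) and H2-Q10 just above it (1.92 FPKM). Together the members took 3.66% and 3.69% of all FPKM under IL-33 alone and 3.92% and 4.69% after addition of Ang II. Of the 31 tested members, 9 lay above both IL-33 values in each Ang II library, 11 lay below them, and 11 overlapped. Of all 9215 tested genes, 24.4% were higher, 33.5% lower and 42.1% overlapped. Without Ang II replicate 1, 15 of 30 tested members lay above and 14 below, where 48.3% and 47.9% of all tested genes did. Without replicate 2, 11 of 31 lay above and 18 below, where 45.1% and 51.7% of all did. By limma, with Benjamini-Hochberg adjustment over all genes, no member reached an adjusted p of 0.05, and neither did any other gene, 0% of those tested. At an unadjusted p under 0.05 there were 2 members higher and 3 lower, 5 in all, against 2.79%, 10.8% and 13.6% of all genes. Of these 5, H2-Oa passed the minimum of 1 FPKM only through the Ang II libraries, and H2-T24, H2-Ab1 and H2-Aa only through the IL-33 libraries, so a difference was built into their selection. With the IL-33 libraries counted as 2 samples, limma passed 3 members higher and 3 lower at an adjusted p of 0.05, against 5.34% and 13% of all genes. The median log2 fold change of the tested members was -0.14, with -0.15 and 0.06 in the separate Ang II libraries, and that of all tested genes was -0.00. An exact two-sided permutation test on ranks of 1 sample against 2 cannot go below p = 0.667. In bulk samples such as these, fewer cells of a type and less RNA per cell cannot be told apart.

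**Figure D1:**
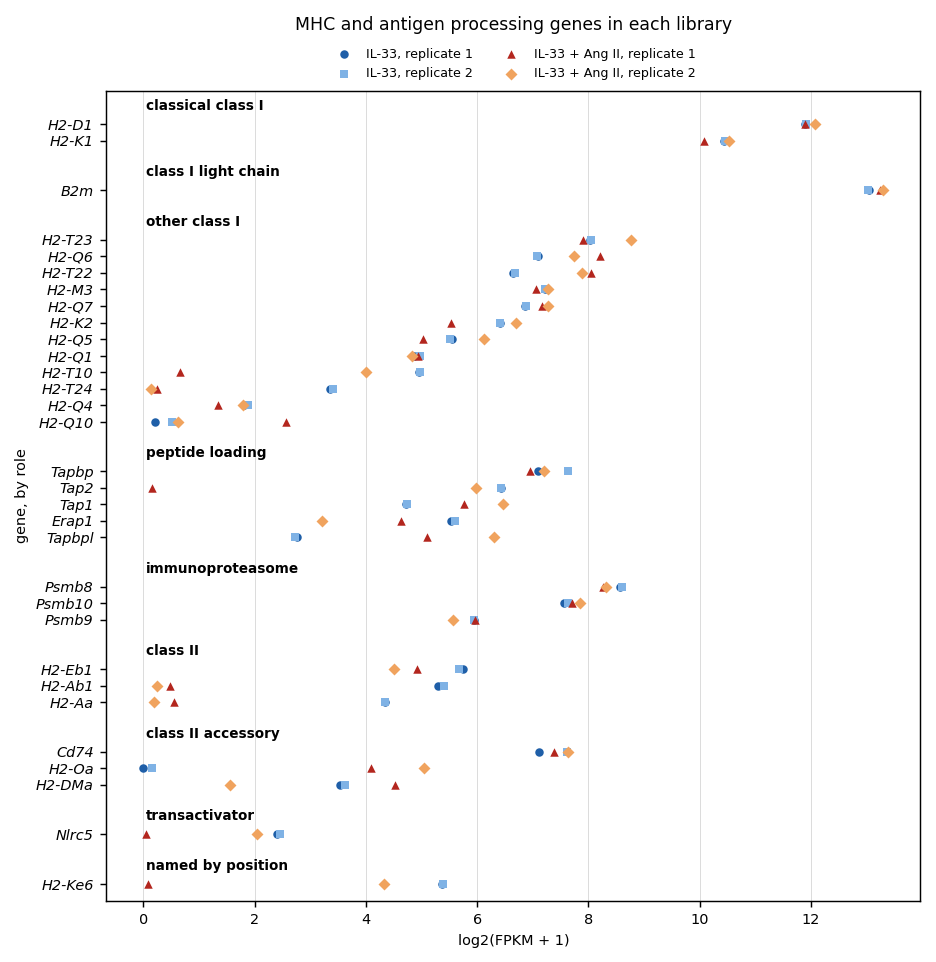
Level of each tested member (x axis, log2 of FPKM + 1) in the 4 libraries, 1 point per library, grouped by role on the y axis. B2m, H2-D1 and H2-K1 stand furthest to the right in every library, while H2-Ab1, H2-Aa and H2-T24 lie near 0 in both Ang II libraries.

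The promoters of 6 members are shown because the results below set these genes apart by level and by their difference between groups. Each line gives the 250 bases before the start of the gene in RefSeq (build GRCm38.p6, the assembly of mm10), 5′ to 3′ on the strand of the gene. Capitals mark matches, on either strand, to CCAAT (reversed, ATTGG), to TGACG, to the interferon-stimulated response element core (GAAA, any 2 bases, GAAA) and to a kappa B core GGGNNTTCC.
B2m (chr2:122147437-122147686, plus strand): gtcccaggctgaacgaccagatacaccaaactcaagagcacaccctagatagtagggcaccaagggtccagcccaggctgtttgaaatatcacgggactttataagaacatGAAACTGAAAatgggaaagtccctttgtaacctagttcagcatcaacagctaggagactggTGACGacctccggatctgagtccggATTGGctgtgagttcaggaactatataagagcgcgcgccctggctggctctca
H2-K1 (chr17:34000348-34000597, minus strand): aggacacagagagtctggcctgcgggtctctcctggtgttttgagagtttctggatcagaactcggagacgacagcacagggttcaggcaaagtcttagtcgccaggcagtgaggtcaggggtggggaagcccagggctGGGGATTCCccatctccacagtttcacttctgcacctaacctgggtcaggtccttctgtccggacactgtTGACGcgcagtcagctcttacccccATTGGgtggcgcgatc
H2-T22 (chr17:36042743-36042992, minus strand): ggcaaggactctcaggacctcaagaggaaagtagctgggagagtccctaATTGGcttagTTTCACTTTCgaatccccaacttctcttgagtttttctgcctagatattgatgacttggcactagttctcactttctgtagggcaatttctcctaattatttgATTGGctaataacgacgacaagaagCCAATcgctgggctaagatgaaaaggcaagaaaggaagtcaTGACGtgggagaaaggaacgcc
Tap1 (chr17:34187306-34187555, plus strand): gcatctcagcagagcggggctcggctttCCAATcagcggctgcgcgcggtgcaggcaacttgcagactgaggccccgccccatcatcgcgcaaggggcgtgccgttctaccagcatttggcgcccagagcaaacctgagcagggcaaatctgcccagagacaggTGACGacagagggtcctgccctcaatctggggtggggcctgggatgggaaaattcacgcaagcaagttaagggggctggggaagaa
H2-Aa (chr17:34287824-34288073, minus strand): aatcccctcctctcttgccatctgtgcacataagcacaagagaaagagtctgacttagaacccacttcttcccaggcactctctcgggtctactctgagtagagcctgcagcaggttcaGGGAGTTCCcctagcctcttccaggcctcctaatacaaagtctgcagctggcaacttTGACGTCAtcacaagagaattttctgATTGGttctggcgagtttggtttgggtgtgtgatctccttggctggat
H2-Eb1 (chr17:34305617-34305866, plus strand): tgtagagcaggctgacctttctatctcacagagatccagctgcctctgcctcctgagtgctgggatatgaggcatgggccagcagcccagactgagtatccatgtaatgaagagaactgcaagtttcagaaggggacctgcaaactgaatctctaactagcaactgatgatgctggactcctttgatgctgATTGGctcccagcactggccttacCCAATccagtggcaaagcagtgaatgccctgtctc
In H2-Aa, TGACG matched on both strands and the matches overlap. Promoters were found for 38 members (41 windows, since some have more than 1 start). H2-Ab1, Cd74, Tap2, Tapbpl, Nlrc5, Ciita and H2-T24 were among those without a window, so the counts that follow do not cover them. CCAAT was present in 34 of the 41 windows and in 33.8% of all 32851 promoters of the same length, and TGACG in 16 and in 17.8%. The kappa B core was in 9 of the 41 and in 4.98% of all. The response element core was in 3 (B2m, H2-T23 and H2-T22), against 2.98% of all. A search made after these promoters had been read looked for TGACG followed on the same strand by ATTGG with their first letters 20 to 30 bases apart. It found 6 members, B2m, H2-K1, H2-D1, H2-M3, H2-Q7 and H2-Aa, with those letters 24 to 26 bases apart, and 0.207% of all promoters. H2-Aa, near 0 with Ang II, and B2m, at its highest there, both carry that arrangement. H2-Eb1 holds CCAAT without TGACG. These matches are exact letters in a window, so a box that differs by a base is not marked or counted. They say nothing of which factor was bound.

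Classical class I genes were among the most abundant transcripts of the cells in every library, and the heavy chains overlapped between groups. B2m (chr2:122147686-122153083), the light chain, ranked 6th of all genes in both IL-33 libraries, at 8436 and 8335 FPKM, and after addition of Ang II measured 9630 and 10099.6 FPKM. Both Ang II values of B2m lay above both IL-33 values, by 1.15-fold and 1.2-fold (log2 fold change of 0.23 ± 0.09 SE, adjusted p = 0.602). H2-D1 (chr17:35262730-35267499) measured 3788 and 3829 FPKM under IL-33 alone, against 3778 and 4293 FPKM after addition of Ang II. H2-K1 (chr17:33996017-34000347) measured 1379 and 1402 FPKM under IL-33 alone, against 1085 and 1476 FPKM after addition of Ang II. For these heavy chains the Ang II libraries lay on either side of the IL-33 values (log2 fold change of 0.08 ± 0.15 SE for H2-D1 and of -0.14 ± 0.31 SE for H2-K1). H2-K1 and H2-D1 made up 84.4% of the summed class I heavy chain FPKM in both IL-33 libraries and 80.4% in both Ang II libraries. That sum includes the class I models annotated as pseudogenes.

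The other class I genes spread more widely. H2-T22, whose product is a peptide-free ligand of some gamma-delta T cells, measured 98.6 and 102 FPKM under IL-33 alone, against 262 and 236 FPKM after addition of Ang II. Both Ang II libraries were high and close to each other, at 2.61-fold and 2.36-fold of the IL-33 mean (log2 fold change of 1.30 ± 0.21 SE, unadjusted p = 0.031, adjusted p = 0.273 by limma). H2-T10, its close relative, was lower in both, with 30.1 and 30.4 FPKM against 0.57 and 14.96 FPKM (log2 fold change of -2.64 ± 2.22 SE, and -0.97 without Ang II replicate 1). In these transcripts, 6.92% of the 100-base windows of H2-T22 also occur in H2-T10, and H2-T10 overlaps the gene model Gm7030 on the same strand, which stood at 23.2 and 25.5 FPKM against 0 and 10 FPKM. Fragments could thus have been split between them by the authors' counting. The sum of H2-T22 and H2-T10 was 129 and 132 FPKM with IL-33 and 262 and 251 FPKM with Ang II. It leaves out Gm7030, and the part of fragment assignment in these values was not tested.

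H2-Q6 and H2-Q7, which encode forms of the Qa-2 antigen, were higher in both Ang II libraries. H2-Q6 measured 135 and 134 FPKM under IL-33 alone, against 295 and 212 FPKM after addition of Ang II (log2 fold change of 0.89 ± 0.35 SE). H2-Q7 stood at 115 and 117 FPKM against 142 and 153 FPKM (log2 fold change of 0.34 ± 0.21 SE). H2-Q7 holds 8.36% of the 100-base windows of H2-Q6, so their split is uncertain, while their sum was 250 and 251 FPKM against 437 and 365 FPKM. H2-T24 measured 9.19 and 9.55 FPKM under IL-33 alone, against 0.18 and 0.10 FPKM after addition of Ang II (log2 fold change of -3.19 ± 0.36 SE, adjusted p = 0.176). Its p is the smallest among the members (unadjusted 0.0163). H2-T23, which encodes Qa-1, stood at 258 and 262 FPKM against 239 and 432 FPKM, and H2-M3, which shows formylated peptides of bacteria and mitochondria, at 147 and 148 FPKM against 133 and 154 FPKM. For H2-T23, H2-M3, H2-K2 (84 and 84.4 against 45.2 and 103 FPKM), H2-Q5 (45.7 and 44.9 against 31.5 and 68.4 FPKM) and H2-Q1 (28.1 and 30.2 against 29.5 and 27.3 FPKM) the groups overlapped. Of the 28 class I models outside H2-K1 and H2-D1, 15 were listed at 0 in all libraries, namely the 6 named H2-M10, H2-M1, H2-M2, H2-M9, H2-M11, the pseudogene H2-M10.5-ps1, H2-Bl, H2-Q2, H2-Q3 and H2-T3, the thymus leukaemia antigen gene. The GENCODE annotation also lists H2-Q3 as a pseudogene, H2-K2 as a transcribed pseudogene, and H2-Bl, H2-Q5 and H2-T10 as polymorphic pseudogenes. H2-Q4 (2.5 and 2.7 against 1.54 and 2.45 FPKM) and H2-Q10 (0.16 and 0.43 against 4.92 and 0.53 FPKM) were tested but stayed under 5 FPKM.

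**Figure D2:**
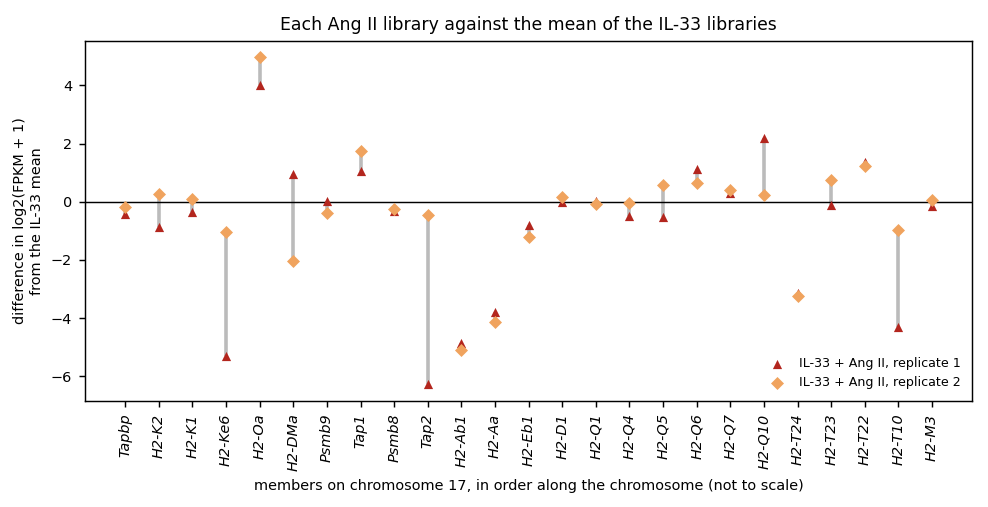
Difference of each Ang II library from the mean of the IL-33 libraries (y axis, log2 of FPKM + 1) for the 25 tested members on chromosome 17, in chromosome order. The points of H2-Ab1, H2-Aa and H2-T24 lie together far below 0, those of Tap2, H2-Ke6 and H2-T10 are far apart, and neighbours such as Psmb9 and Tap1 differ.

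Of the 5 genes of peptide transport and loading, 2 were higher, 2 lower and 1 overlapped, where 24.4%, 33.5% and 42.1% of all tested genes did. Tap1, a chain of the peptide transporter, measured 25.3 and 25.7 FPKM under IL-33 alone, against 53.5 and 87.1 FPKM after addition of Ang II (log2 fold change of 1.39 ± 0.53 SE, adjusted p = 0.609). Tap2, the other chain, stood at 84.9 and 85.3 FPKM with IL-33, at 0.11 FPKM in Ang II replicate 1 and at 62.2 FPKM in replicate 2. Tap1 was thus the higher in both Ang II libraries, and Tap2 the lower, with most of the difference of Tap2 in replicate 1 (log2 fold change of -3.36 ± 3.77 SE, and -0.45 without it). Tapbpl, which encodes the tapasin-related peptide editor TAPBPR, measured 5.81 and 5.58 FPKM under IL-33 alone, against 33.3 and 78.1 FPKM after addition of Ang II. That is 5.85-fold and 13.7-fold (log2 fold change of 2.96 ± 0.85 SE, adjusted p = 0.48). It overlaps Vamp1 on the opposite strand, at 0 to 2.59 FPKM, and strand use in the counting is not given in the sources used here. Tapbp, which encodes tapasin, overlapped between groups (136 and 196 against 123 and 147 FPKM). Erap1 measured 45.2 and 47.8 FPKM under IL-33 alone, against 23.7 and 8.3 FPKM after addition of Ang II (log2 fold change of -1.65 ± 0.98 SE, and -0.94 without replicate 2), lower in both. It overlaps Cast on the opposite strand (24.1 and 25.1 against 18.7 and 18.6 FPKM).

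Tap1 and Psmb9, an immunoproteasome gene, start 225 bases apart and run in opposite directions, so the Tap1 line above also holds the bases upstream of Psmb9. Psmb9 measured 60.4 and 60.7 FPKM under IL-33 alone, against 61.3 and 46.2 FPKM after addition of Ang II, and the ratio of Tap1 to Psmb9 within a library was 0.419 and 0.423 against 0.873 and 1.89. The gene models overlap by 212 bases on opposite strands, so some fragments there could belong to either.

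Immunoproteasome genes, whose products replace the catalytic subunits of the constitutive proteasome, were abundant and differed little in level. Psmb8 measured 380 and 385 FPKM under IL-33 alone, against 307 and 319 FPKM after addition of Ang II, lower in both (log2 fold change of -0.29 ± 0.16 SE). Psmb10 stood at 188 and 198 FPKM against 208 and 230 FPKM, higher in both (log2 fold change of 0.18 ± 0.20 SE). The constitutive counterparts Psmb5 (412 and 424 against 248 and 279 FPKM) and Psmb6 (454 and 453 against 296 and 241 FPKM) were lower in both Ang II libraries, and Psmb7 (36.3 and 36 against 30.9 and 42.3 FPKM) overlapped. Within a library, the ratio of Psmb8 to Psmb5 was 0.923 and 0.909 with IL-33 and 1.24 and 1.15 with Ang II. The ratio of Psmb9 to Psmb6 was 0.133 and 0.134 against 0.207 and 0.191. That of Psmb10 to Psmb7 was 5.17 and 5.48 against 6.74 and 5.43, where the groups overlapped. The ratios of Psmb8 and Psmb9 were thus higher in both Ang II libraries. Such a ratio alone shows unequal values and not which gene differs. By level, Psmb5 and Psmb6 were lower in both Ang II libraries, while Psmb8 was lower as well and Psmb9 overlapped. The higher ratios thus went with lower values of the constitutive genes and not with higher values of Psmb8.

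**Figure D3:**
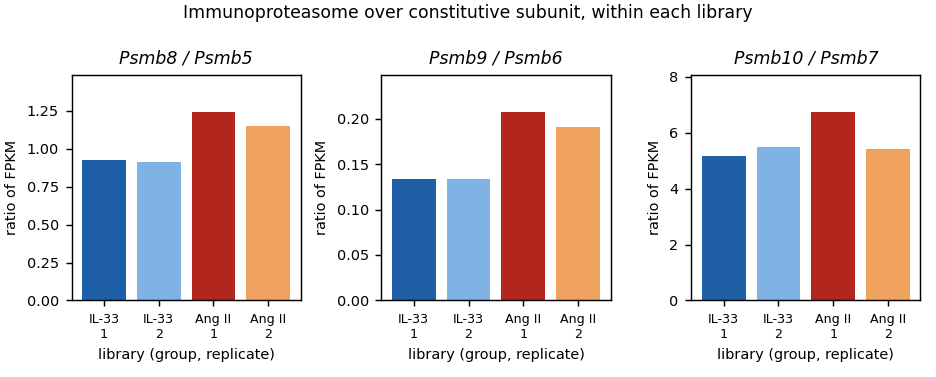
Ratio of the FPKM of each immunoproteasome gene to that of the constitutive subunit it replaces (y axis, from 0), 1 bar per library. The Psmb8 and Psmb9 ratios are higher in both Ang II libraries, and the Psmb10 ratio of Ang II replicate 2 (5.43) lies within the IL-33 range.

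Class II chains were low beside class I and lower in both Ang II libraries. H2-Ab1 (chr17:34257689-34269419), the beta chain of the I-A molecule, measured 38.5 and 41.3 FPKM under IL-33 alone, against 0.40 and 0.18 FPKM after addition of Ang II (log2 fold change of -4.99 ± 0.64 SE, unadjusted p = 0.0208, adjusted p = 0.206 by limma). H2-Aa (chr17:34282744-34287823), its alpha chain, stood at 19.3 and 19.2 FPKM against 0.46 and 0.14 FPKM (log2 fold change of -3.97 ± 0.57 SE, adjusted p = 0.239). Both chains of I-A were thus near 0 in both Ang II libraries. H2-Eb1 (chr17:34305867-34316674), the beta chain of I-E, measured 52.5 and 49.8 FPKM under IL-33 alone, against 29.1 and 21.7 FPKM after addition of Ang II, lower in both but present (log2 fold change of -1.00 ± 0.42 SE, adjusted p = 0.67). H2-Ea, whose product would pair with it, was listed at 0 in all libraries; C57BL/6 mice are known to carry a defective copy. H2-Eb2 was at 0 to 0.02 FPKM, and the pseudogenes H2-Pa and H2-Pb were at 0 in all libraries.

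Levels near 0 were common in these Ang II libraries. Of 4143 genes with an IL-33 mean from 5 to 60 FPKM, 18.4% were under 1 FPKM in both Ang II libraries and a further 28.6% in 1 of them. Among the 12 members in that range, H2-Aa, H2-Ab1 and H2-T24 were under 1 FPKM in both, and H2-Ke6 and H2-T10 in 1. Conversely, of 2445 tested genes with an IL-33 mean under 1 FPKM, 5.07% reached 15 FPKM in both Ang II libraries, and H2-Oa was among them. All of these genes passed the minimum for testing only through the Ang II libraries, so that share is no independent background. The limits used in this paragraph were not planned, and 15 FPKM lies just under the lower Ang II value of H2-Oa (15.98 FPKM). H2-Ke6, which stood at 40.4 and 40.8 against 0.06 and 19.1 FPKM, is named for its position and encodes a hydroxysteroid dehydrogenase. It shares 61.6% of its windows with an overlapping model of the same strand, Gm20427 (9.73 and 8.74 against 0.04 and 0.12 FPKM).

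The invariant chain gene Cd74 did not go with the class II chains. It measured 137 and 194 FPKM under IL-33 alone, against 166 and 197 FPKM after addition of Ang II, and the groups overlapped (log2 fold change of 0.13 ± 0.24 SE). Its ratio to the summed FPKM of H2-Aa, H2-Ab1 and H2-Eb1 was 1.24 and 1.76 with IL-33 and 5.56 and 8.92 with Ang II. Cd74 and Tapbp were also the members on which the IL-33 libraries parted: replicate 2 was 1.42-fold and 1.44-fold of replicate 1, while no other member of at least 100 FPKM differed by more than 1.052-fold. The typical difference was 1.024-fold over the 701 genes at that level, of which 21 differed as much as Tapbp. H2-DMa, a chain of the peptide exchanger H2-DM, stood at 10.6 and 11.3 FPKM with IL-33, at 21.9 FPKM in Ang II replicate 1 and at 1.94 FPKM in replicate 2. Its partners H2-DMb1 and H2-DMb2 were at 0 to 0.18 FPKM. H2-Oa, a chain of the modulator H2-DO, whose fitted fold depends on the pseudocount and which reached the minimum for testing only through the Ang II libraries, was listed at 0 and 0.11 FPKM under IL-33 alone, against 16 and 32 FPKM after addition of Ang II (log2 fold change of 4.49 ± 0.85 SE, unadjusted p = 0.0417, adjusted p = 0.334 by limma). H2-Ob, the other chain of H2-DO, was at 0.04 FPKM or less in every library.

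**Figure D4:**
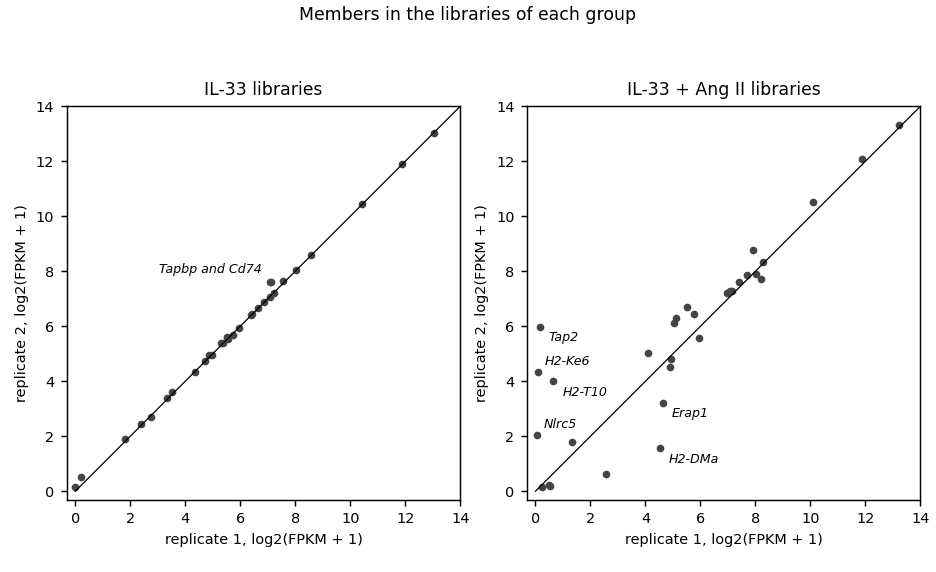
The 31 tested members in replicate 1 (x axis) against replicate 2 (y axis) of each group, as log2 of FPKM + 1, with the line of equality. The IL-33 points lie on or close to the line, with Tapbp and Cd74 above it, while in the Ang II pair Tap2, H2-Ke6, H2-T10, Nlrc5, Erap1 and H2-DMa lie far from it.

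Transcripts of cell types that carry much class II were present and differed between libraries as well. The marker counts given here include genes under the minimum for testing. Of all tested genes, 24.4% were higher in both Ang II libraries and 33.5% lower. With Ang II, 2 of 12 macrophage and monocyte markers were higher in both libraries and 3 lower, and their summed level was 2086 and 2051 FPKM with IL-33 and 2034 and 928 FPKM with Ang II. Among these, Lyz2 stood at 1700 and 1668 against 1016 and 683 FPKM, and Adgre1, the F4/80 gene, at 24.2 and 23.6 against 0.06 and 0.04 FPKM. C1qb was at 0 in all libraries, and C1qa, C1qc, Mrc1, Mertk and Csf1r did not exceed 0.13 FPKM. Of 6 B cell markers, 1 was higher and 1 lower in both, with sums of 17.4 and 14.6 against 52 and 1.92 FPKM, and Ebf1 did not exceed 0.02 FPKM. The higher was Pax5 (0.02 and 0.03 against 0.83 and 0.04 FPKM). The lower was Cd79a (2.52 and 2.46 against 0.31 and 0.19 FPKM), and neither reached the minimum for testing. Cd79b, the only B cell marker tested, overlapped between groups (14.6 and 11.9 against 50.5 and 0.28 FPKM). It made up most of the B cell sum in every library except Ang II replicate 2. Of 8 dendritic cell markers, 1 was higher and 1 lower in both, with sums of 13.2 and 12.9 against 16.8 and 3.49 FPKM, and 5 (Itgax, Cd209a, Ccl22, Flt3 and Clec9a) were at 0 in all libraries. Of 7 epithelial markers, 5 were lower in both (sums of 368 and 358 against 80.1 and 190 FPKM). All 5 red blood cell markers were lower in both (sums of 25146 and 24943 against 3831 and 1591 FPKM), and so were 5 of 6 T cell markers (214 and 211 against 118 and 23.6 FPKM). The dendritic cell markers above 1 FPKM went in opposite directions: Batf3 stood at 10.8 and 10.3 FPKM under IL-33 alone and at 0 in each Ang II library, and Xcr1 at 2.38 and 2.57 against 16.8 and 3.48 FPKM. Cd68 was lower in both (150 and 150 against 130 and 51.6 FPKM), Chil3 overlapped (212 and 209.7 against 696 and 158 FPKM), and Marco, at 0 in both IL-33 libraries, reached 191 and 23.2 FPKM in the others. Their part in the class II values was not tested.

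**Figure D5:**
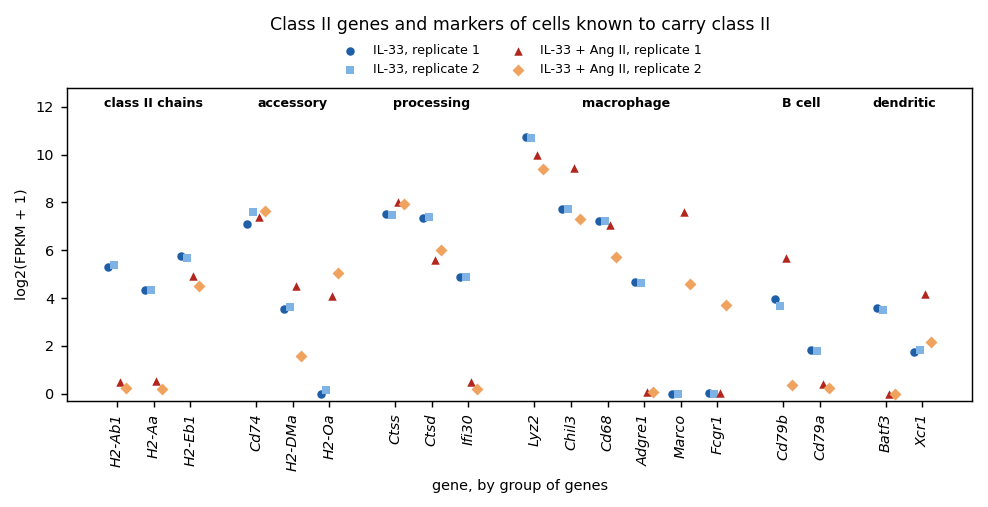
Class II genes, processing enzymes and markers of macrophages, B cells and dendritic cells (x axis) as log2 of FPKM + 1 (y axis), 1 point per library. H2-Ab1, H2-Aa, Ifi30 and Adgre1 are near 0 in both Ang II libraries, while Cd74 and Ctss are not.

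The transactivator genes were low. Ciita was listed at 0 in 3 libraries and at 0.17 FPKM in Ang II replicate 1. Nlrc5 measured 4.3 and 4.48 FPKM under IL-33 alone, against 0.03 and 3.13 FPKM after addition of Ang II, lower in both, with most of the difference in replicate 1 (log2 fold change of -1.39 ± 1.36 SE, and differences of -2.39 and -0.38 in the separate libraries). Of 13 genes of other factors that act on MHC promoters, 11 were tested, with 6 above and 1 below both IL-33 values in each Ang II library, none past an adjusted p of 0.05. Over all tested genes, 24.4% lay above and 33.5% below. Irf1, a driver of class I genes, overlapped between groups (101 and 96.5 against 111 and 93.4 FPKM). Rela, an NF-kB subunit, stood at 82.8 and 86.5 against 67.4 and 41.3 FPKM. Rfx5, which class II transcription needs and which was singled out after its values were seen, was at 0 in 3 libraries and at 0.28 FPKM in Ang II replicate 2.

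Of 7 chaperones and proteasome activator genes of the class I path, 1 lay above and 2 below both IL-33 values in each Ang II library. Among all tested genes, 24.4% lay above and 33.5% below. The thiol oxidoreductase gene Pdia3 stood at 734 and 742 against 280 and 520 FPKM, Psme2 at 461 and 480 against 449 and 504 FPKM, and Hspa5 at 417 and 417 against 490 and 538 FPKM. Pdia3 was lower in both, Hspa5 higher in both, and Psme2 overlapped. Of 8 genes of class II processing and turnover, 6 were tested, with 2 higher and 2 lower, beside the same 24.4% and 33.5% of all tested genes. Ctss, which cuts the invariant chain, stood at 184 and 177 against 259 and 247 FPKM. The aspartic protease gene Ctsd stood at 162 and 168 against 47.2 and 62.7 FPKM (log2 fold change of -1.58 ± 0.35 SE). Ctsb, another lysosomal protease gene, was higher in both (48.5 and 49.6 against 75.8 and 78.3 FPKM). Ifi30 encodes the lysosomal thiol reductase of class II processing and was singled out after its values were seen. It reached the minimum for testing only through the IL-33 libraries, so a difference was built into its selection. It stood at 28.2 and 28.6 against 0.39 and 0.16 FPKM (log2 fold change of -4.53 ± 0.60 SE, unadjusted p = 0.0222, adjusted p = 0.216 by limma), near 0 in both Ang II libraries.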

How the data were processed

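RNA-seq of lung ILC2s gave 4 libraries, grouped by their titles, 2 of them with Ang II. The authors deposited FPKM per gene with 2 decimals, per the file headers. Each column was assigned through its name. The submitters' processing notes name mm10, HISAT, StringTie and edgeR, without versions or roles. The annotation they used is not given in the sources used here. Depth is unknown, no molecular identifiers are named, and amplification from 500 cells can lose or multiply a transcript. Identifiers were looked up in GENCODE M21 (55141 of 55401), which gave coordinates and transcripts.

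FPKM are no counts, so log2(FPKM + 1) of the 9215 genes averaging 1 FPKM or more was tested with limma 3.58.1 in R 4.3.3 (mean-variance trend, two-sided, Benjamini-Hochberg), with the IL-33 libraries averaged as 1 sample, 1 residual degree of freedom, and the lone IL-33 sample assumed to vary as the Ang II samples do. The fit was tested on simulated data. Fold changes on this scale understate those of low genes. Members with a group mean of at least 5 FPKM are named, with those that define a role, and up to 3 of the most abundant genes of each pathway list; some genes of the lists are not reported here. Members and lists were chosen with earlier results of these data known. Alternatives changed the replicates, block, pseudocount, filter, scaling and trend. Sequence windows of 100 bases were compared over all GENCODE transcripts.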

Additional observations from a re-analysis of the deposited data

How the results depend on the processing

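With the IL-33 libraries counted as 2 replicates, limma called 486 genes higher and 1179 lower (5.34% and 13% of genes), among them 3 members higher (B2m, H2-T22 and H2-Oa) and 3 lower (H2-Aa, H2-Ab1 and H2-T24). With a replicate block added to that limma fit, 0 genes were called higher and 0 lower, 0 of them members (smallest adjusted p = 0.106). The labels give the libraries across groups a shared replicate number and do not say whether they were paired. The deviations of IL-33 replicate 1 and Ang II replicate 1 correlated at -0.02. That value cannot decide on pairing, since the IL-33 deviations of a typical gene lay near counting noise. All other fits run called 0 genes: pseudocount 0.1, no filter, a mean of at least 5 FPKM, both scalings, no trend, and without either IL-33 library. Without either Ang II library there is no test.

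Leaving out 1 library, members outside the IL-33 values numbered 9 to 15 higher and 11 to 18 lower, the most without Ang II replicate 1 (48.3% of all genes higher) and replicate 2 (51.7% lower) in turn. Separation is easier by construction with fewer libraries. The median log2 fold change of the members was -0.15 to -0.00. Median-ratio scaling moved the median of all genes to 0.11; H2-M3 (0.06) and H2-Q1 (0.07) then changed sign, and H2-D1 and H2-T23 stood higher in both Ang II libraries. Without haemoglobin genes Psmb9 stood lower in both. H2-Q4 overlapped under either scaling. Leaving out 1 library turned the sign of Cd74 (-0.10 to 0.40), H2-Q1 (-0.09 to 0.02), H2-K1 (-0.36 to 0.09), H2-M3 (-0.15 to 0.06), H2-K2 (-0.88 to 0.28), H2-DMa (-2.02 to 0.94), H2-D1 (-0.01 to 0.17), Psmb9 (-0.38 to 0.02), H2-T23 (-0.12 to 0.73) and H2-Q5 (-0.51 to 0.58); the cause was not tested.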

Other observations

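Ligands that act beside MHC molecules in antigen presentation were mostly low. Of 7 costimulatory and inhibitory ligand genes, 4 were tested, and 1, Cd274, which encodes PD-L1, was higher in both Ang II libraries (9.75 and 10.6 against 24.2 and 37.9 FPKM, log2 fold change of 1.49 ± 0.56 SE, limma adjusted p = 0.601). Among all tested genes, 24.4% were higher in both. Pdcd1lg2, which encodes PD-L2, measured 18.4 and 17.3 FPKM under IL-33 alone, against 0.08 and 17.5 FPKM after addition of Ang II. Tnfsf4, the OX40 ligand gene, was at 0 with IL-33 and in Ang II replicate 2, and at 34.2 FPKM in replicate 1.

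Of 9 genes of MHC-like molecules outside the H2 names, 2 were tested. Cd1d1, which shows lipids to natural killer T cells, measured 14.1 and 13.3 FPKM under IL-33 alone, was listed at 0 in Ang II replicate 1 and stood at 19.4 FPKM in replicate 2. Procr, the endothelial protein C receptor gene, did not exceed 0.15 FPKM except in Ang II replicate 2 (64.7 FPKM). The list had 4 further genes at 0 in all libraries.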
